A study of Homo sapiens with 4 samples.

Results

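BRD2, BRD3 and BRDT belong to the bromodomain and extraterminal (BET) family, the proteins that JQ1 binds. The 3 genes were taken by symbol from the gene table of 41507 genes, and their 21 transcripts by gene symbol and number from the transcript table of 67765 transcripts. BRD2 has 4 transcripts in the table, BRD3 has 3 and BRDT has 14. RNA was sequenced from SU-DHL-5 and Toledo, established human lines of diffuse large B-cell lymphoma, after 6 h in the vehicle DMSO or in JQ1 at 1 µM as the sample labels give it. There was 1 sample per line and treatment, and 2 libraries per sample in the tables. The libraries of a sample were averaged, so n = 1 in every condition. Differences could not be tested against replicates, and p-values are left out.

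BET proteins carry a pair of bromodomains, which bind acetylated lysines on histone tails, and an extraterminal domain, which recruits partner proteins to chromatin. Through these contacts they help RNA polymerase II to start and to elongate transcripts. JQ1 occupies the acetyl-lysine pocket of the bromodomains and displaces the proteins from chromatin. The comparison of JQ1 with DMSO here thus shows what happened to the RNA of those targets of the drug that were examined. Not every member of the BET family was examined. BRD2 and BRD3 are made in most tissues, whereas BRDT belongs to the male germ line, where it is needed to form sperm.

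BRD2 was higher after JQ1 in both lines, by more in SU-DHL-5 than in Toledo. BRD3 was slightly higher in SU-DHL-5 and higher in Toledo by about as much as BRD2 there. BRDT was listed at 0 in every library. Within BRD2, the transcript with the most upstream start was lower after JQ1 in both lines while the transcripts from both other main starts were higher.

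All positions are on GRCh38, the build named in the submitters' processing notes, and the positions of the 3 genes in the tables lay within 2 bases of those in GENCODE 29. BRD2 lies on the plus strand at chr6:32968660-32981505, inside the MHC class II region. BRD3 lies on the minus strand at chr9:134030305-134068533 and BRDT on the plus strand at chr1:91949371-92014428. The lengths recovered from the RPKM values equal those of the annotated transcripts with the same ends for BRD2_1 (4894 bases), BRD2_2 (4807 bases) and BRD2_4 (3210 bases), the last of which stands for a pair of annotated transcripts. BRD2_1 begins with a noncoding exon of 397 bases at chr6:32968660-32969056. BRD2_2 begins 2228 bases further on, with a noncoding exon of 310 bases at chr6:32970888-32971197. The remaining 12 exons, 4497 bases in all, are the same in both, so that these transcripts differ in their first exon alone and are annotated with the same protein of 801 codons, whose start codon at chr6:32972899-32972901 lies in the shared second exon. BRD2_4 begins 2196 bases downstream of BRD2_2, with an exon of 46 bases at chr6:32973084-32973129, after that start codon. It shares 3164 bases with BRD2_1, and one annotated transcript of this form has a protein that starts 47 codons later, with 754 codons. BRD2_3 (4602 bases) starts at the shared second exon, and its length equals the 4497 shared bases plus a further exon of 105 bases at chr6:32979090-32979194.

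The stretches just before the annotated RefSeq starts are shown because the BRD2 transcripts that differed in direction are annotated with different starts. That of BRDT is shown because it was listed at 0. Each is 150 bases of GRCh38.p14, from the RefSeq promoter table, cut where an exon of a protein-coding transcript began. In all, 6 short motifs were searched on both strands, and matches are in capitals. The E-box, which basic helix-loop-helix factors bind, was searched as CACGTG. The box that SP1 and related zinc finger proteins bind was searched as GGGCGG. The box that the factor NF-Y binds was searched as CCAAT. The box that positions the start of many regulated genes was searched as TATAAA. The motif of NRF1 was searched as GCGCATGC and the cyclic AMP response element as TGACGTCA.
BRD2_1, chr6:32968444-32968593, plus strand: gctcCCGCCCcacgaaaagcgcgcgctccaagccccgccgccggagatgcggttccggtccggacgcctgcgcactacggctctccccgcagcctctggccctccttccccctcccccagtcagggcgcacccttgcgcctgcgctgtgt
BRD2_2, chr6:32970738-32970887, plus strand: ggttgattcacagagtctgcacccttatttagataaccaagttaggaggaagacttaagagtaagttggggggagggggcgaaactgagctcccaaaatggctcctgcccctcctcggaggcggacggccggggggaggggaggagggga
BRD2_4, chr6:32972934-32973083, plus strand: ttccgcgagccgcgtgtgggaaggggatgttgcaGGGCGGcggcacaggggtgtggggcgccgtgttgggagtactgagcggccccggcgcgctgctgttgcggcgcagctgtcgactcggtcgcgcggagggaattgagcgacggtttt
BRDT, chr1:91949221-91949370, plus strand: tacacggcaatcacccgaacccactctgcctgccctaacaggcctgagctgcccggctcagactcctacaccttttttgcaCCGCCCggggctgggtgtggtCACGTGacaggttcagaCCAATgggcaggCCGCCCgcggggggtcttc

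In the whole 300-base windows around each start, those of BRD2_1, BRD2_2 and BRD2_4 each held 1 GGGCGG and none of the other 5 motifs, and that of BRD2_3 held none of the 6. The BRD3 window held 6 copies of GGGCGG. That motif is in 44.95% of the 35116 promoter windows in the table. Both BRDT windows, which overlap each other, held 2 copies of GGGCGG as well as the E-box, the NF-Y motif and TATAAA. The E-box, the NF-Y motif and TATAAA are in 7.26%, 34.6% and 11.5% of all windows. The TATAAA did not lie within the 150 bases shown before the BRDT start. The NRF1 motif and the cyclic AMP response element, found in none of the windows of these genes, are in 3.05% and 1.85% of all windows. The RefSeq start used for BRD2_1 lies 66 bases before the start in the deposited table, and that for BRD2_2 lies 42 bases after it. The share of G and C was 71.7% in the BRD2_1 window, 64.3% in that of BRD2_2, 50.3% in that of BRD2_3 and 85.0% in that of BRD3, against a median of 58.7% over all windows. These letters describe the windows and do not show that a factor was bound.

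BRD2, which couples acetylated chromatin to transcription, stood at 31.99 and 30.6 RPKM in the DMSO libraries of SU-DHL-5 and at 52.6 and 50.9 RPKM in its JQ1 libraries. RPKM is the number of reads divided by feature length and by library size, so it gives a share of the RNA, and in such bulk samples fewer cells of a type and less RNA per cell cannot be told apart. In Toledo the DMSO libraries gave 29.5 and 33.5 RPKM and the JQ1 libraries 41.1 and 39.1 RPKM. Every JQ1 library lay above every DMSO library of its line, and the JQ1 libraries of SU-DHL-5 were the highest of the 8. The fold of the mean RPKM was 1.65 in SU-DHL-5, compared with 1.27 in Toledo. On the scale log2((JQ1 + 0.1)/(DMSO + 0.1)), used for all ratios here, the Toledo ratio was 0.35 and the SU-DHL-5 ratio 0.72.

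The RPKM values correspond to whole reads, and BRD2 had 5473 reads after DMSO and 8633 after JQ1 in SU-DHL-5. The same counts in Toledo were 5708 and 6955. The exact 95% binomial interval of the log2 ratio of these reads ran from 0.68 to 0.78 in SU-DHL-5. That of Toledo ran from 0.30 to 0.40. Such intervals cover counting error only, not the spread between cultures. Between libraries of one sample, BRD2 differed by -0.06 (DMSO) and -0.05 (JQ1) on the log2 scale in SU-DHL-5 and by 0.18 (DMSO) and -0.07 (JQ1) in Toledo, library 2 against library 1. The difference between the treatments was thus larger than the difference between libraries in both lines. In Toledo, genes of like length also differed between the DMSO libraries, with a median of 0.19. The part of this difference in the BRD2 ratio was not tested. When centred on genes of like length, the BRD2 ratio was 0.38 in Toledo and 0.61 in SU-DHL-5. With library 1 alone the Toledo ratio was 0.47 and with library 2 alone it was 0.22.

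BRD2 was not alone in this direction. Of the 9316 genes of at least 1 RPKM in SU-DHL-5, 42.1% had JQ1 libraries that lay above each DMSO library, and 9.03% were more than 1.5-fold higher. BRD2 passed the 1.5-fold line there and lay at percentile 94.8 of the ratios. In Toledo, 29.5% of 9646 genes had non-overlapping, higher JQ1 libraries and 7.01% were more than 1.5-fold higher, and BRD2 lay below that line, at percentile 84.1. In the other direction, the JQ1 libraries lay below each DMSO library for 38.5% of SU-DHL-5 genes and 43.6% of Toledo genes, and 12.9% and 17.2% were more than 1.5-fold lower. The median ratio over all these genes was 0.02 for SU-DHL-5, compared with -0.07 for Toledo.

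**Figure D1:**
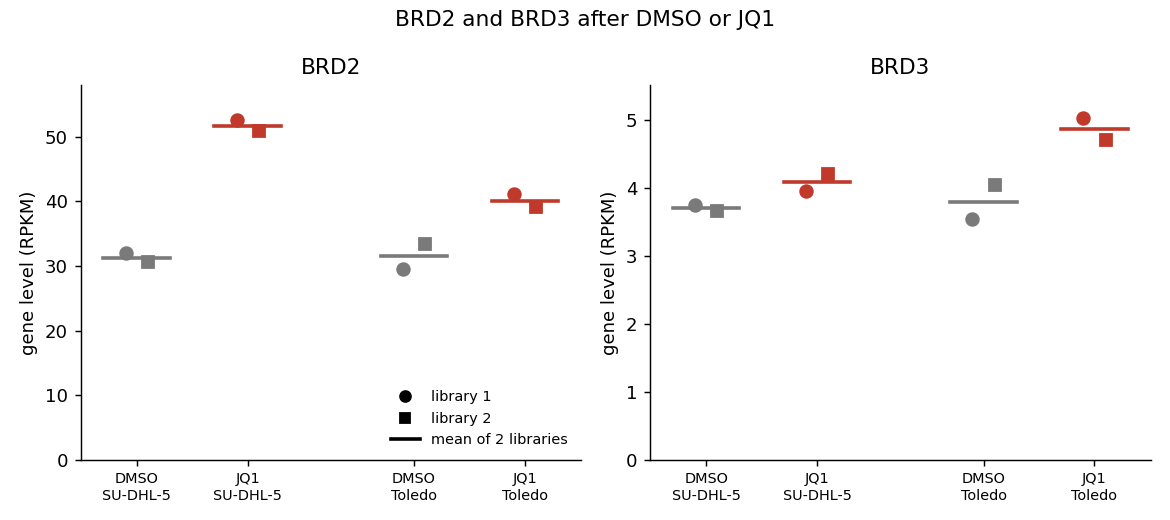
Gene level in RPKM (vertical axis, from 0) of BRD2 and BRD3 in each library of the 4 samples, with circles for library 1, squares for library 2 and bars for their mean. The JQ1 means of BRD2 are 51.8 RPKM for SU-DHL-5 and 40.1 RPKM for Toledo, above DMSO means of 31.3 and 31.5, and the JQ1 points of BRD3 lie above the DMSO points of the same line by a smaller margin in SU-DHL-5.

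BRD3, a second reader of acetylated lysines, stood far lower. Its DMSO libraries gave 3.75 and 3.66 RPKM in SU-DHL-5 and its JQ1 libraries 3.96 and 4.21 RPKM. In Toledo it stood at 3.54 and 4.04 RPKM after DMSO and at 5.04 and 4.70 RPKM after JQ1. The JQ1 libraries lay above the DMSO libraries in each line, with a gap in SU-DHL-5 of the order of the difference between libraries. The log2 ratio was 0.14 in SU-DHL-5, with an interval from recovered reads of -0.01 to 0.29 that included 0 and a value of 0.08 with library 1 alone, and 0.35 in Toledo, with an interval of 0.22 to 0.51. The SU-DHL-5 ratio rests on 709 reads after DMSO and 744 after JQ1, and the Toledo ratio on 752 and 925. BRD3 lay at percentile 61.2 of the SU-DHL-5 ratios and 84.4 of the Toledo ratios. The DMSO libraries of Toledo differed by 0.19 for BRD3 and by a median of 0.23 for genes of like length. This was not tested against the BRD3 ratio of Toledo. That ratio was 0.39 when centred on genes of like length and 0.21 with library 2 alone. BRD2 and BRD3 were both among the genes whose JQ1 libraries lay above the DMSO libraries in both lines, which held for 24.4% of the 8718 genes of at least 1 RPKM in each line.

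In the annotation, BRD3OS lies on the opposite strand over the 3′ end of BRD3, and one of its transcripts shares 1281 bases with it. Under its older symbol LINC00094 it was listed at 0 in all 8 libraries. The libraries were made with a stranded kit, but whether the counting used strand is not given in the sources used here, so reads of BRD3 and of BRD3OS could not be told apart.

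Both untreated lines held nearly the same amounts of BRD2 and BRD3 RNA. The mean of BRD2 after DMSO was 31.3 RPKM for SU-DHL-5 cells and 31.5 RPKM for Toledo cells, a log2 difference of 0.01 (interval -0.05 to 0.06). BRD3 means were 3.70 and 3.79 RPKM, a log2 difference of 0.03 (-0.12 to 0.18). Both differences were smaller than that between the DMSO libraries of Toledo. After DMSO, BRD2 lay at percentile 77.2 of the SU-DHL-5 levels and 79.4 of the Toledo levels, and BRD3 at 25.3 and 26.4.

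The JQ1 ratios of both lines were then set side by side. The BRD2 ratio was 0.38 lower in Toledo than in SU-DHL-5 on the log2 scale (counting interval of the difference -0.45 to -0.31), and that of BRD3 was 0.21 higher (0.02 to 0.43). With library 1 alone the differences were -0.24 for BRD2 and 0.42 for BRD3, and with library 2 alone they were -0.51 and 0.014, so that for BRD3 almost none was left in library 2. With 1 sample per condition, neither difference could be tested against the spread between samples. The ratio of BRD2 to BRD3, in RPKM per RPKM, was 8.53 and 8.37 in the DMSO libraries of SU-DHL-5 and 13.3 and 12.1 in its JQ1 libraries. In Toledo it was 8.34 and 8.28 after DMSO and 8.16 and 8.31 after JQ1. The balance of both genes thus moved toward BRD2 in SU-DHL-5, whereas in Toledo the 4 libraries lay within 0.2 of each other.

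BRDT, the germ-line member, was listed at 0 RPKM in all 8 libraries, as were all 14 of its transcripts. A count of 0 allows up to 3 reads, which over the 4334 bases of its annotated exons is 0.0392 to 0.0474 RPKM, depending on the library. No fold can be given for it. Other genes of male germ cells were also near 0. Of 14 such genes (among them the meiosis genes SYCP1 and STRA8 and the protamine PRM2, all at 0), 5 were at 0 in every library and none reached 1 RPKM in either line, and their summed level ran from 0.1 to 0.475 RPKM per library.

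The transcript table shows how BRD2 was composed. Its values are the authors' estimates of how reads over shared exons divide among transcripts, so an error in one transcript is an error of the opposite sign in another. BRD2_1, with the most upstream first exon, stood at 10.9 and 8.42 RPKM after DMSO in SU-DHL-5 and at 7.46 and 6.61 RPKM after JQ1. In Toledo it stood at 9.55 and 9.30 RPKM after DMSO and at 4.32 and 3.79 RPKM after JQ1. In both lines the JQ1 libraries lay below the DMSO libraries, by the wider margin in Toledo. The log2 ratio was -0.45 in SU-DHL-5 (interval from estimated reads -0.56 to -0.33) and -1.20 in Toledo (-1.35 to -1.08). For all transcripts here, such intervals treat the estimated reads as counts and leave out the error of dividing reads among transcripts.

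BRD2_2, which differs from BRD2_1 in its first exon alone, went the other way. Its DMSO libraries in SU-DHL-5 gave 10.9 and 10.8 RPKM and its JQ1 libraries 19.7 and 20.02 RPKM. In Toledo it stood at 6.68 and 11.6 RPKM after DMSO and at 21.8 and 17.3 RPKM after JQ1. No libraries overlapped, although those of Toledo differed widely after DMSO. The log2 ratio was 0.87 in SU-DHL-5 (0.79 to 0.96) and 1.09 in Toledo (1.02 to 1.20), and the Toledo value was 1.69 with library 1 alone and 0.57 with library 2 alone.

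BRD2_4, the short transcript that starts after the usual start codon, was the most abundant in every library. It stood at 19.2 and 22.0 RPKM after DMSO in SU-DHL-5 and at 38.5 and 43.2 RPKM after JQ1. Toledo gave 24.0 and 24.2 RPKM after DMSO and 29.2 and 30.4 RPKM after JQ1. The JQ1 libraries were higher in each line, with a log2 ratio of 0.98 in SU-DHL-5 (0.90 to 1.05) and 0.30 in Toledo (0.23 to 0.38). The remaining transcript, BRD2_3, ranged from 0 to 5.81 RPKM over the libraries and held at most 8.12% of the BRD2 transcripts in any of them. It passed 1 RPKM only in the JQ1 samples, and in Toledo its libraries overlapped between the treatments.

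**Figure D2:**
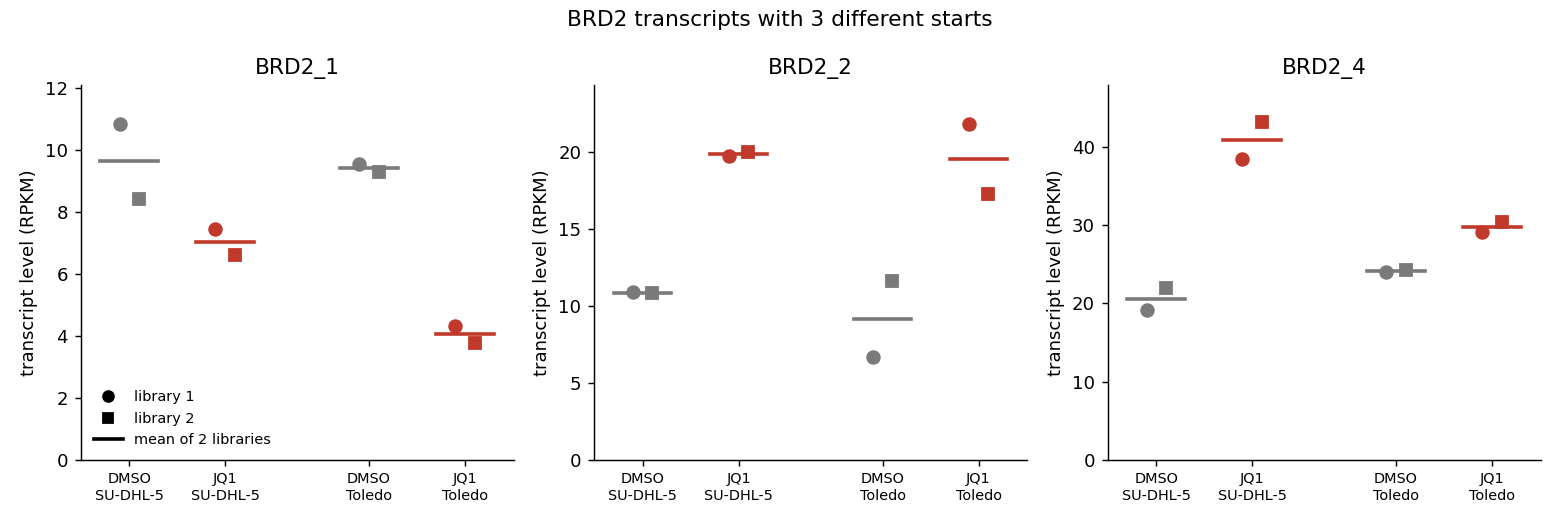
Transcript level in RPKM (vertical axes, from 0, with a separate scale for each transcript) of BRD2_1, BRD2_2 and BRD2_4 in each library, with circles for library 1, squares for library 2 and bars for their mean. In both lines BRD2_1 is lower after JQ1 (mean 7.03 RPKM for SU-DHL-5 and 4.05 RPKM for Toledo), and BRD2_2 and BRD2_4 are higher.

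As shares of the summed BRD2 transcripts, BRD2_1 held 25.9% and 20.4% of the RPKM in the DMSO libraries of SU-DHL-5 and 10.4% and 9.31% in its JQ1 libraries. In Toledo it held 23.4% and 20.6% after DMSO and 7.80% and 7.06% after JQ1. The lowest DMSO share of either line was thus above the highest JQ1 share of either line. BRD2_2 held 26.1% of the sample mean after DMSO and 27.9% after JQ1 in SU-DHL-5, compared with 21.3% and 35.9% in Toledo. BRD2_4 held 49.6% after DMSO and 57.3% after JQ1 in SU-DHL-5, compared with 56.1% and 54.6% in Toledo.

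**Figure D3:**
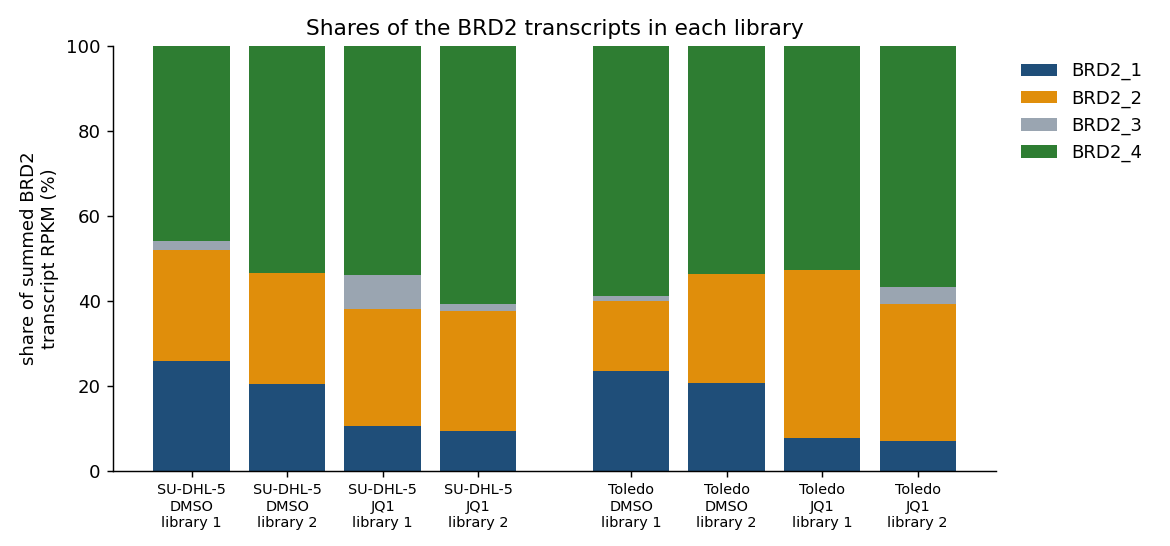
Stacked bars of the share (%) of the summed BRD2 transcript RPKM held by each of the 4 transcripts, 1 bar per library. BRD2_1, at the base, lies between 20.4% and 25.9% in the 4 DMSO libraries and between 7.06% and 10.4% in the 4 JQ1 libraries.

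The ratio of BRD2_2 to BRD2_1 compares 2 transcripts of nearly equal length with the same protein. It was 1.00 and 1.28 in the DMSO libraries of SU-DHL-5 and 2.65 and 3.03 in its JQ1 libraries. In Toledo it was 0.70 and 1.25 after DMSO and 5.05 and 4.56 after JQ1. All JQ1 libraries lay above all DMSO libraries of both lines, and those of Toledo were the highest.

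The transcripts contributed differently to the higher BRD2 level of each line. In SU-DHL-5 the summed transcript RPKM was 29.7 higher after JQ1, with 20.2 more from BRD2_4, 9.02 more from BRD2_2, 3.04 more from BRD2_3 and 2.60 less from BRD2_1. In Toledo it was 11.6 higher, with 10.4 more from BRD2_2, 5.66 more from BRD2_4, 0.88 more from BRD2_3 and 5.37 less from BRD2_1. The order of BRD2_2 and BRD2_4 in Toledo rested on library 1, in which BRD2_2 was 15.1 RPKM and BRD2_4 5.17 RPKM higher after JQ1, whereas in library 2 they were 5.64 and 6.16 RPKM higher. The log2 ratio of BRD2_4 was 0.68 lower in Toledo than in SU-DHL-5 (counting interval of the difference -0.78 to -0.57), that of BRD2_1 was 0.75 lower (-0.95 to -0.60) and that of BRD2_2 was 0.22 higher (0.11 to 0.36). The direction for BRD2_2 turned with the library, since its difference was 0.84 with library 1 alone and -0.32 with library 2 alone. As for the whole genes, these differences could not be tested across samples.

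Non-overlapping transcripts are common in these tables. Among the 17461 transcripts of at least 1 RPKM in SU-DHL-5, 31.6% had JQ1 libraries that lay above each DMSO library and 33.1% had them below each. Of 17800 in Toledo, 25.2% lay above and 37.3% below. A pattern such as that of BRD2, with 1 transcript higher and another lower in both lines and no overlap, was seen in 208 of the 3772 genes with at least 2 such transcripts (5.51%).

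Other annotated RNAs lie over parts of BRD2. On the minus strand, a transcript of HLA-DMA shares 55 of the 397 bases of the first exon of BRD2_1, and an antisense RNA (AL645941.3) shares 577 bases with the exon that BRD2_1 and BRD2_2 have in common. The HLA-DMA model in the deposited table ends before BRD2 and does not hold that transcript. HLA-DMA stood at 145 and 125 RPKM after DMSO and at 89.5 and 91.1 RPKM after JQ1 in SU-DHL-5, and at 90.8 and 82.0 against 73.4 and 79.6 RPKM in Toledo. It was thus lower after JQ1 in both lines, like BRD2_1, and its part in the BRD2_1 values was not tested.

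BRD3_1, the longest BRD3 transcript that was measured (5654 bases), held 77.0% to 95.97% of the BRD3 transcripts in each library. BRD3_1 stood at 3.28 and 3.67 RPKM after DMSO and at 3.33 and 3.87 RPKM after JQ1 in SU-DHL-5, where the libraries overlapped (log2 ratio 0.05, interval -0.12 to 0.20). In Toledo it stood at 3.25 and 3.95 RPKM after DMSO and at 4.59 and 4.72 RPKM after JQ1, without overlap (0.36, 0.23 to 0.52). BRD3_3, which is 4377 bases long, held 10.6% of the BRD3 transcripts after DMSO and 18.5% after JQ1 in SU-DHL-5, compared with 10.6% and 9.81% in Toledo. Its libraries ran from 0.0538 to 0.997 RPKM and overlapped between the treatments in both lines. The remaining transcript, BRD3_2, was above 0 in 1 library only, at 0.103 RPKM.

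BRD2 stood apart in direction from the genes around it. It is flanked by genes of the MHC class II region, most of which encode proteins that load or present peptides to T cells. The 3 nearest expressed genes on each side were HLA-DMA, HLA-DMB and PSMB9 on the lower side and HLA-DOA, HLA-DPA1 and HLA-DPB1 on the higher side, with HLA-DMA 15538 bases and HLA-DOA 22677 bases away. In SU-DHL-5 all 6 had both JQ1 libraries below both DMSO libraries, with log2 ratios from -1.01 to -0.18, and in Toledo 5 of 6 did, with ratios from -0.77 to -0.17 for all 6. The Toledo libraries of PSMB9, an immunoproteasome subunit, overlapped. HLA-DPB1, a chain of a presenting molecule, had the lowest ratio of the 6 in SU-DHL-5 (-1.01) and also in Toledo (-0.77). Against these, 38.5% and 43.6% of all genes lay below without overlap, as given above.

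BRD3 and BRDT had neighbours that moved in both directions. The expressed genes nearest to BRD3 were WDR5 (a subunit of histone methyltransferase complexes) 67146 bases to the higher side, with ratios of -0.17 (SU-DHL-5) and -0.22 (Toledo), and SLC2A6 551151 bases to the lower side. SLC2A6, a sugar transporter, was nearly absent in SU-DHL-5 and stood at 4.69 RPKM after DMSO and 5.76 RPKM after JQ1 in Toledo. CACFD1, also on the lower side, was higher in both lines (0.39 and 0.86), and C9orf116 on the higher side was lower in both (-2.62 and -1.43). C9orf116 passed 1 RPKM after DMSO alone (means of 1.68 RPKM in SU-DHL-5 and 1.90 RPKM in Toledo), so the filter favoured a lower value after JQ1. REXO4 had ratios of -0.33 and -0.05, and PPP1R26 was listed at 0 in SU-DHL-5 and had a ratio of -0.77 in Toledo. Around BRDT, GLMN (0.86 and 0.46) and LOC102723410 (0.83 and 0.82) were higher in both lines. In Toledo, LOC102723410 stayed below 1 RPKM, with means of 0.39 RPKM after DMSO and 0.76 RPKM after JQ1. The replication kinase gene CDC7 (-0.32 and -0.28) and the repressor gene GFI1 (-0.68 and -1.06) were lower in both lines. ZNF644 (0.18 and -0.18) and RPAP2 (0.06 and -0.15) had libraries that overlapped in at least 1 line.

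**Figure D4:**
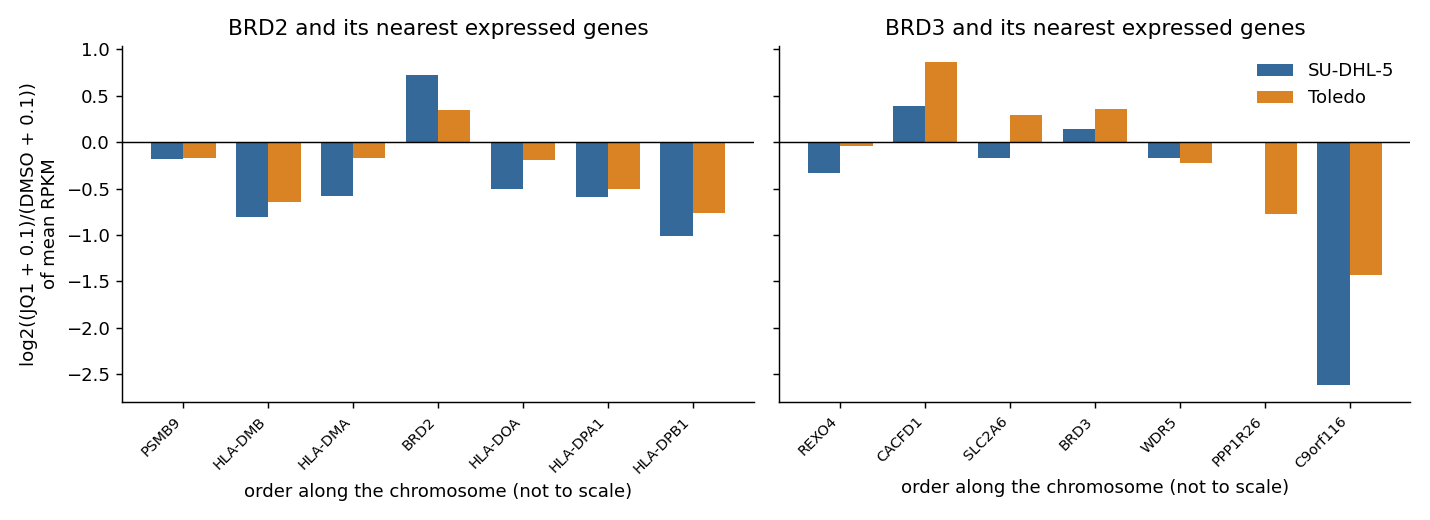
Log2 ratio of JQ1 to DMSO (vertical axis, mean RPKM plus 0.1) of BRD2, of BRD3 and of the 3 nearest genes of at least 1 RPKM on each side, in their order along the chromosome, with blue bars for SU-DHL-5 and orange bars for Toledo. BRD2 has positive bars (0.72 and 0.35) between 6 genes with negative bars, and BRD3 has neighbours on either side of 0, with no SU-DHL-5 bar for PPP1R26, which was listed at 0 there.

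Over the 4 samples, the genes with the profile most like BRD2 were KIAA2026, RRAGA, FBXL5, TSPAN3 and DPP3. Likeness was the distance between log2(RPKM + 0.1) profiles centred on their own mean, over the 10244 genes of at least 1 RPKM in one sample, and it ran from 0.03 to 0.07 for these 5. For BRD3 the nearest were N4BP2L1, SRBD1 and RHOA, with distances from 0.04 to 0.06. With 4 samples, these names describe the tables only.

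Other genes that encode bromodomains were mixed. Of 37 such genes, 35 were of at least 1 RPKM in each line. In SU-DHL-5, 19 of the 35 lay above and 5 below without overlap, and in Toledo 9 lay above and 12 below, beside 42.1% above and 38.5% below of all genes in the first line and 29.5% and 43.6% in the second. The bromodomain genes had a median log2 ratio of 0.12 and 0.00 in these lines against 0.02 and -0.07 over all genes. One of the 35 had a higher ratio than BRD2 in SU-DHL-5, whereas 5 had one in Toledo. By the mean of both lines, the highest were TRIM66 (0.77 for SU-DHL-5 and 1.21 for Toledo) and TRIM33 (0.55 and 0.51), both of the tripartite motif family, and TRIM66 reached 1 RPKM after JQ1 alone. The lowest were ZMYND8, a reader of modified histones (-1.30 and -1.76), and KAT2A, an acetyltransferase (-0.90 and -1.19). Past 1.5-fold, 1 gene was higher and 2 were lower in SU-DHL-5, and 2 were higher and 2 lower in Toledo, beside 9.03% and 12.9% of all genes in the first line and 7.01% and 17.2% in the second.

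**Figure D5:**
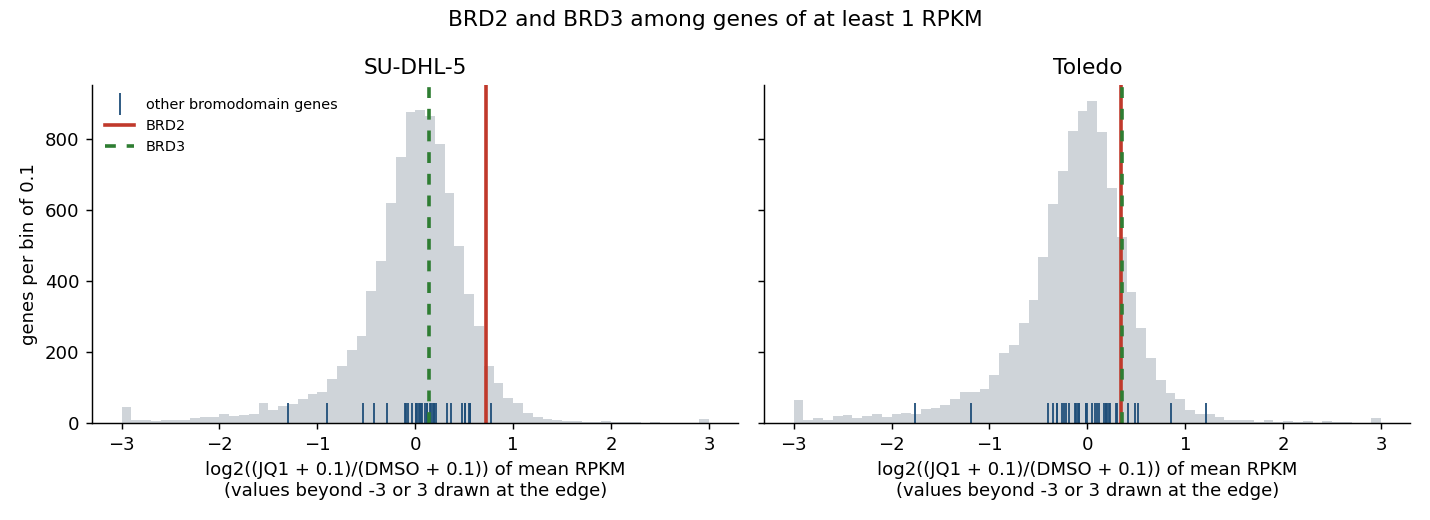
Histograms of the log2 ratio of JQ1 to DMSO for all genes of at least 1 RPKM in SU-DHL-5 (9316 genes) and Toledo (9646 genes), in bins of 0.1, with lines for BRD2 (solid red) and BRD3 (dashed green) and ticks for 35 other bromodomain genes. In SU-DHL-5 BRD2 lies at 0.72 and BRD3 at 0.14, and in Toledo both lie at 0.35.

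Genes of the enzyme families that add or remove acetyl groups also lay on both sides. Of 11 acetyltransferase genes, 5 lay above and 3 below without overlap in SU-DHL-5, compared with 3 and 3 in Toledo, with medians of 0.08 and -0.03. Of all genes, 42.1% lay above and 38.5% below in the first line and 29.5% and 43.6% in the second. By the mean of both lines, KAT6A (0.56 and 0.54) and KAT2B (0.56 and 0.49) were the highest, and KAT2A and KAT5 (-0.67 and -0.77) the lowest. Of 18 genes of the deacetylase families (HDAC and SIRT), 17 were of at least 1 RPKM. Without overlap, 8 lay above and 7 below in SU-DHL-5 and 8 above and 8 below in Toledo, beside the same shares of all genes. The medians were 0.04 and 0.14. By the mean of both lines, SIRT1 (0.77 and 0.75) and SIRT4 (0.51 and 0.87) were the highest, with SIRT4 at 1 RPKM only after JQ1, and HDAC8 (-0.18 and -1.18) and HDAC9 (-0.34 and -0.79) the lowest.

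Of 5 genes for partners of the extraterminal domain, 1 lay above and 3 below in SU-DHL-5, and none above and 4 below in Toledo, beside 42.1% and 38.5% of all genes in the first line and 29.5% and 43.6% in the second, with medians of -0.19 and -0.26. JMJD6, a hydroxylase, had ratios of -0.41 and -0.53 and ATAD5 of -0.19 and -0.43. The remodeller CHD4 had ratios of -0.25 and 0.03, GLTSCR1 of 0.29 and -0.03, and WHSC1L1, also called NSD3, of 0.24 and -0.26. The 6 genes for the ubiquitin ligase that marks BET proteins for turnover (SPOP, CUL3, RBX1) and for casein kinase 2, which phosphorylates them (CSNK2A1, CSNK2A2, CSNK2B), lay within 1.5-fold in both lines, from -0.27 to 0.25 for SU-DHL-5 and from -0.35 to 0.31 for Toledo, with medians of 0.00 and 0.13. Past 1.5-fold lay 9.03% of all genes above and 12.9% below for the first line, against 7.01% and 17.2% for the second. Most genes of either line thus also lay within 1.5-fold. Without overlap, 2 of these 6 lay above and 2 below for SU-DHL-5, compared with 3 and 1 for Toledo. Of all genes, 42.1% and 38.5% did so for the first line, against 29.5% and 43.6% for the second. RBX1 was higher in both lines (0.14 and 0.24) and CSNK2B lower (-0.27 and -0.35), without overlap.

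HEXIM1, an inhibitor of elongation whose RNA is known to increase under BET inhibitors, had a log2 ratio of 2.43 in SU-DHL-5, compared with 2.57 in Toledo. All 7 B-cell genes examined were of at least 1 RPKM in each line, and the label is B lymphocyte. Among them, MS4A1, CD22 and CD79A lay below without overlap in both lines, PAX5 in SU-DHL-5, and CD79B and EBF1 in Toledo, with a median of -0.71 and -0.76. Counting all 7, 5 lay below for SU-DHL-5 and 6 for Toledo, beside 38.5% and 43.6% of all genes. None lay above in either line, beside 42.1% and 29.5% of all genes. Of 10 genes that mark T cells, monocytes, epithelium or fibroblasts, EPCAM and KRT8 were at 0 in every library. Others passed 1 RPKM after DMSO alone, namely CD3E and LYZ for SU-DHL-5 and COL1A1 for Toledo. The filter thus favoured a lower value after JQ1 for these genes. Each of these lay below after JQ1 without overlap in that line, with log2 ratios of -2.61 (CD3E), -2.35 (LYZ) and -2.66 (COL1A1). The summed level of the 10 ran from 2.34 to 3.17 RPKM in the DMSO libraries and from 0.238 to 0.50 RPKM in the JQ1 libraries, and its part in the BRD2 and BRD3 values was not tested. Mapped reads ran from 14617583 to 17679831 per library, with 94.8% to 95.5% on genes.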

How the data were processed

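The tables that the authors deposited hold RPKM of genes and of transcripts, with reads scaled to length and library, for 2 libraries of each of 4 samples. The submitters' processing notes name CASAVA 2.0 and GRCh38. The aligner, the annotation, the counting and what separates the 2 libraries are not given in the sources used here. The labels give 6 h of treatment, and the legend in the paper gives another time. The libraries of a sample were averaged (n = 1), and no test was made.

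Mapped reads were recovered as the total that made RPKM of single-exon genes whole, and a feature's length as the shortest, between 100 and 40000 bases, at which its 8 values were whole within 0.001 reads. The recovery of lengths and reads, and the ratios, were tested on simulated data with the mapped reads taken as known. No count model was fitted. Intervals are exact 95% binomial (for differences between lines, exact conditional) intervals of these reads. Ratios are log2((JQ1 + 0.1)/(DMSO + 0.1)), genes passed at 1 RPKM in DMSO or JQ1 of a line, and calls used 1.5-fold or non-overlap of libraries. The members and lists were chosen with earlier results of these data known. Named were the 3 genes, transcripts with 10% of their gene in one sample, 3 expressed neighbours a side, the 5 nearest profiles, and the 2 highest and 2 lowest genes of each list (all of lists of up to 7). Some genes that this rule names are not reported here but remain in the counts and medians. Exons came from GENCODE 29 and promoters from RefSeq, and no protein sequence was analysed here. The alternatives were the pseudocount, the filter, the scaling, the table, the library and length. The scripts used scipy 1.17.1, pandas 2.3.3 and numpy 2.4.6 under Python 3.11.15, with matplotlib 3.10.9 for the plots.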

Additional observations from a re-analysis of the deposited data

Results flagged for a closer look

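WHSC1L1, which encodes a partner of the extraterminal domain, was higher after JQ1 in SU-DHL-5 (log2 ratio 0.24) and lower in Toledo (-0.26), without overlap of libraries in either line, a difference of -0.50 between the ratios that was not tested. In Toledo this rested on library 2, in which the ratio was -0.48, while in library 1 it was -0.01 (3.12 RPKM after DMSO and 3.09 RPKM after JQ1).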

How the results depend on the processing

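No paired analysis was possible because the design has 1 sample in each group. Over 32 alternative values each, the direction of the BRD2 and BRD3 ratios and that of BRD2_1, BRD2_2, BRD2_4 and BRD3_1 was the same as reported. For the transcripts, the alternatives with a pseudocount of 1 and with scaling were chosen after seeing the data. A value was counted as moved when it left the counting interval. BRD2 in SU-DHL-5 was 0.61 when centred on genes of like length. In Toledo it was 0.43 after scaling by the median ratio, 0.47 with library 1 and 0.22 with library 2, and BRD3 was 0.21 with library 2. For the transcripts in Toledo, BRD2_2 was 1.69 with library 1 and 0.57 with library 2. Among all genes, more than 1.5-fold lower were 2029 SU-DHL-5 genes and 2645 Toledo genes without a filter (main 1204 and 1657) and 680 and 911 at 5 RPKM. More than 1.5-fold higher were 511 and 375 at 5 RPKM, and 512 and 441 with a pseudocount of 1 (main 841 and 676). The fewer genes tested at 5 RPKM lower these counts by construction. The median ratio of other bromodomain genes in Toledo was -0.051 at 5 RPKM (main 0.00). For BRDT no alternative gave a value, since all its values were 0. The alternatives in the rest of this paragraph were chosen after seeing the data. With a pseudocount of 1, BRD2_1 in Toledo was -1.04 and BRD2_2 was 1.02, and with scaling BRD2_4 was 0.39. The Toledo minus SU-DHL-5 difference of the BRD2 ratio was -0.24 with library 1, -0.51 with library 2 and -0.29 with scaling, and that of BRD3 was 0.014 with library 2. The Toledo to SU-DHL-5 log2 ratio after DMSO reversed with library 1 for BRD2 (-0.11) and BRD3 (-0.080), and was 0.13 for BRD2 with library 2. Between the lines, the difference of the BRD2_2 response to JQ1 was 0.84 with library 1 and reversed to -0.32 with library 2, and that of BRD2_1 was -0.59 with library 1. The causes were not tested.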
